A study of Rattus norvegicus with 5 samples.

Results

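Peptide hormones are made as inactive precursors and are cut and trimmed inside the secretory granules of endocrine cells. The genes described here encode that machinery: the convertase Pcsk2 (PC2), the chaperone Scg5 (7B2) on which PC2 depends for its activation, Pcsk1n (proSAAS), a granin-like precursor whose peptides inhibit the convertase PC1/3, the carboxypeptidase Cpe, and the amidating enzyme Pam. All probe sets that the array platform's annotation assigned to these symbols were taken, whatever their signal. The rule named 6 genes, of which 5 were measured by 7 probe sets, out of 15866 probe sets in all. Pcsk1, the PC1/3 gene, was not analysed here.

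Single-colour rat expression arrays measured total RNA, with 1 array for each line. Clones 14 and 19 of set 5-3 and clones 2 and 16 of set 1-1 derive from the rat insulinoma line INS-1, and each holds an FRT site for targeted insertion of a gene and the tetracycline repressor. The labels of these arrays mention no inserted gene and no tetracycline, and they do not say whether the clones of a set share a founder cell. Parental INS-1 cells were the fifth sample. The design asks how the clones compare with their source line and how the sets compare with each other. Clones of a set served as replicates (n = 2 each), with 1 array per clone, and the parental line has 1 array. A p-value thus reflects the joint spread of clones and their arrays, partly estimated from all tested probe sets, and nothing more.

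Processing runs in a fixed order. Convertases cut a precursor after pairs of basic residues, Cpe removes the basic residues that the cut leaves on the new C terminus, and Pam turns a C-terminal glycine into an amide, which many neuropeptides and gut hormones need for activity. In beta cells PC1/3 and PC2 together with Cpe turn proinsulin into insulin. In alpha cells PC2 cuts proglucagon to glucagon.

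Signals are in arbitrary linear units on arrays that had been scaled to a common level, with array medians of 342 to 372. The beta cell markers with a probe set, 6 of 11 listed, all passed the brightness filter described below. They summed to 78056 and 75526 in set 5-3, 115120 and 69170 in set 1-1 and 108050 in parental cells. Ins1, Iapp and Ins2 made up most of each sum, so the sums mainly follow these genes. Of the alpha, delta and PP cell markers, Gcg was bright and the other 3 with a probe set were not. Markers of acinar cells, fibroblasts, and endothelial cells and leukocytes numbered 6, 5 and 4 with a probe set, none passed the filter, and no single signal among them exceeded 253.2. Added poly(A) control RNA (lys) read 1723 and 1413 in set 5-3 and 1305 and 1328 in set 1-1, against 5129 in parental cells, so an effect of the line and one of how its array was handled cannot be told apart wherever a clone is compared with it. RNA integrity was judged by the beta-actin signal at the 3′ end over that at the 5′ end, which was 1.62 and 1.61 in set 5-3, 1.49 and 1.73 in set 1-1 and 1.60 in parental cells. The 1-1 clones lay on both sides of the other arrays in this ratio. The same ratio for Gapdh was 1.0165 and 1.035 in set 5-3, 0.9812 and 0.9848 in set 1-1 and 1.0471 in parental cells. By Gapdh both 1-1 clones were thus lowest, by a small margin. An effect of RNA integrity on the signals was not tested.

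The convertase gene Pcsk2 was high in both 5-3 clones and in parental cells and low in both 1-1 clones. Its signal was 7512 in clone 14 of set 5-3 and 8705 in clone 19 of set 5-3, 3331 in clone 2 of set 1-1 and 1974 in clone 16 of set 1-1, and 9130 in parental cells. The sets did not overlap: the lower 5-3 clone stood 2.25-fold above the higher 1-1 clone. The order of the arrays was parental cells, clones 19 and 14 of set 5-3, then clones 2 and 16 of set 1-1, and the top 3 lay within 1.21-fold of each other, less than the 1.68-fold between the 1-1 clones. In RNA from whole cultures, fewer cells expressing a gene and less RNA per cell cannot be told apart.

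Pcsk1n had the same arrangement. It read 4737 and 5627 in clones 14 and 19 of set 5-3, 1836 and 1225 in clones 2 and 16 of set 1-1, and 3986 in parental cells. Again both 5-3 clones stood above both 1-1 clones, by at least 2.56-fold, and here they also stood above the parental line, by 1.19- and 1.41-fold. The gap between the clones of a set was 1.19-fold in set 5-3 and 1.49-fold in set 1-1.

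**Figure D1:**
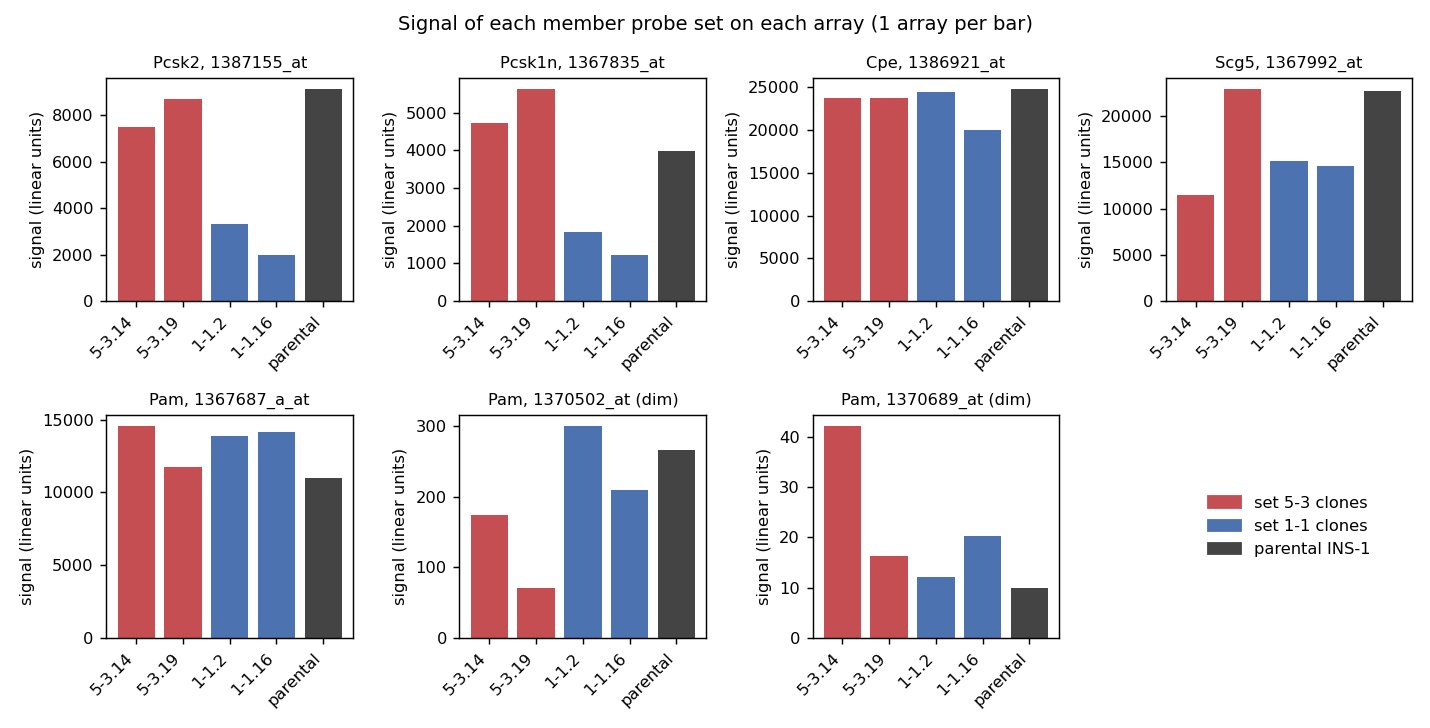
Signal of each of the 7 member probe sets in linear units, 1 bar per array, with set 5-3 in red, set 1-1 in blue and parental cells in grey; axis labels give the set, a point and the clone number. Pcsk2 and Pcsk1n are low in both 1-1 clones (at most 3331 and 1836), while Cpe and the bright Pam probe set vary little; 2 of the Pam probe sets are dim and have much lower axes.

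The promoters of Pcsk2 and Pcsk1n, whose signals ordered the arrays in much the same way, are shown with that of Scg5, whose signal did not follow them. Each is the 250 bases before the annotated start in RefSeq's GRCr8 assembly, printed 5′ to 3′ on the gene's strand, with GC boxes (GGGCGG) and cAMP response element half-sites (TGACG), read on either strand, in capitals. The intervals are chr3:151333688-151333937 (plus strand), chrX:17255406-17255655 (minus strand) and chr3:121042796-121043045 (minus strand).
Pcsk2: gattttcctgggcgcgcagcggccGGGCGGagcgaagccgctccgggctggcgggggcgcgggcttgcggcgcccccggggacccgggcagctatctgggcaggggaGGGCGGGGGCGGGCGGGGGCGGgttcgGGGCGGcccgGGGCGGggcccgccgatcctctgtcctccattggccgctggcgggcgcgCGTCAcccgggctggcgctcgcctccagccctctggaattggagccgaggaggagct
Pcsk1n: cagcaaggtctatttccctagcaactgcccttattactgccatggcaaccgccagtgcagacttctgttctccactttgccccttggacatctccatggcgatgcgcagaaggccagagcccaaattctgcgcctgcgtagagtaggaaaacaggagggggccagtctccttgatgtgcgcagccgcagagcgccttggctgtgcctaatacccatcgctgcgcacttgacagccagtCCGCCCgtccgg
Scg5: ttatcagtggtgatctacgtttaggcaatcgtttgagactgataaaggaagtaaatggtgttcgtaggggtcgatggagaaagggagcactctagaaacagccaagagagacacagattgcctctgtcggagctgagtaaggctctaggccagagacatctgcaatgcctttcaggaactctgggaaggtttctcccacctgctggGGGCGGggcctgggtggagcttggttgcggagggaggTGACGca

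The Pcsk2 promoter was 79.6% G and C, more than 98.8% of the 33469 promoters of this length in the table, and the Pcsk1n and Scg5 promoters were 58.8% and 53.2%, more than 72.1% and 55.6% of them. With overlapping matches counted, the Pcsk2 promoter held 7 GC boxes, a number reached by 0.347% of all promoters, whereas Pcsk1n and Scg5 held 1 each. The Pcsk2 boxes that begin 137 and 133 bases before the start overlap, so the 7 are not all separate sites. At least 1 GC box was present in 30.5% of promoters. The Egr1 motif GCGGGGGCG, which overlaps some of these GC boxes, occurred 3 times in the Pcsk2 promoter and 0 times in the other 4, against 2.45% of promoters with any. The half-site TGACG was present once in Pcsk2 and once in Scg5 and not in Pcsk1n, and in 18.2% of promoters. Of the other members, the Cpe promoter held 1 GC box and 1 half-site and the Pam promoter 0 and 1. E-boxes (CANNTG) numbered 0 in Pcsk2 and 2 in each of the other 4 promoters, and 65.5% of all promoters held one. CCAAT was present 2 times in Pcsk2 and 0 times in the others, and in 34.0% of promoters. The full response element TGACGTCA, which contains the half-site, was in none of the 5 and in 1.59% of promoters. None of these 6 motifs was present in both Pcsk2 and Pcsk1n and absent from the other members.

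Between the clone sets, Pcsk2 was 3.13-fold higher in set 5-3 (8109 ± 844) than in set 1-1 (2653 ± 960; SD, n = 2 each), a log2 difference of 1.65 with an SE of 0.28, and limma's adjusted p was 0.0692. Pcsk1n was 3.41-fold higher in set 5-3 (5182 ± 629) than in set 1-1 (1530 ± 432), a log2 difference of 1.77 with an SE of 0.26 and a limma adjusted p of 0.0519. Neither passed the threshold of 0.05. Ranked by unadjusted p over the 9520 tested probe sets, Pcsk1n was number 51 and Pcsk2 number 88.

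The background for these values is that 0.221% of tested probe sets were called higher in set 5-3 and 0.2% lower, 40 in all. None of the 5 tested member probe sets was called, and the 2 with an unadjusted p under 0.05 compare with 14.8% of all tested probe sets. Both 5-3 clones stood above both 1-1 clones for 2 of 5 members and for 22.1% of all tested probe sets, and by at least 2-fold for the same 2 members and for 1.02%. The size of both differences depended on single clones. Without clone 2 of set 1-1 the log2 difference was 2.06 for Pcsk1n and 2.02 for Pcsk2. Without clone 16 of set 1-1 it was 1.48 and 1.27. Without clone 14 of set 5-3 it was 1.89 and 1.75, and without clone 19 it was 1.65 and 1.54. Such fits lend the lone clone of a set the spread of the other set, so no p-value is given for them. Centring the arrays on their medians brought Pcsk1n to a limma adjusted p of 0.0384 and left Pcsk2 at 0.0646.

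**Figure D2:**
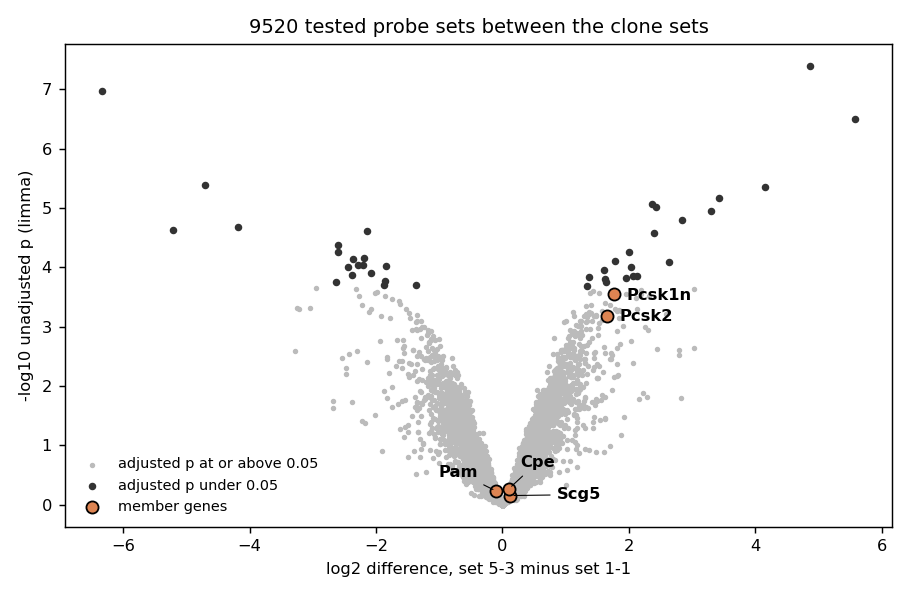
Log2 difference between the clone sets, set 5-3 minus set 1-1, against −log10 of the unadjusted limma p for the 9520 tested probe sets; black points have an adjusted p under 0.05 and orange points are the 5 tested members. Pcsk1n (1.77) and Pcsk2 (1.65) lie just under the called points, and Cpe, Scg5 and Pam lie near 0.

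Set against parental cells, the low signals of both genes lay in set 1-1. Pcsk2 stood at 36.5% of the parental signal in clone 2 of set 1-1 and 21.6% in clone 16 of set 1-1, but at 82.3% and 95.3% in clones 14 and 19 of set 5-3. Pcsk1n stood at 46.1% and 30.7% in set 1-1, and at 118.9% and 141.2% in set 5-3. In the fit with 3 groups, set 1-1 minus parental was −1.82 for Pcsk2 (SE 0.34, limma adjusted p = 0.304) and −1.40 for Pcsk1n (SE 0.32, limma adjusted p = 0.380). Set 5-3 minus parental was −0.17 for Pcsk2 and 0.37 for Pcsk1n, with limma adjusted p of 0.963 and 0.894.

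Both 1-1 clones lay at least 2-fold below each of the other 3 arrays for Pcsk2 and Pcsk1n, that is for 2 of 5 members, and for 0.336% of all tested probe sets. At least 2-fold below the parental line alone, both 1-1 clones placed 2.01% of all tested probe sets. Set 1-1 minus parental called 1 probe set in all, 0.0105% of those tested, and set 5-3 minus parental called 1 as well; neither was a member. With 1 clone of set 1-1 left out, the comparison of Pcsk2 sets 1 array against 1, with the spread taken from set 5-3. It was −2.20 without clone 2 (limma adjusted p = 0.0473) and −1.45 without clone 16 (limma adjusted p = 0.393), and over 12 alternatives, of which only the one without clone 2 passed, the adjusted p ranged from 0.0473 to 0.469. Both comparisons use the same parental array and are not independent of each other.

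Scg5, the PC2 chaperone, did not follow its partner. It read 11449 in clone 14 of set 5-3 and 22902 in clone 19 of set 5-3, 15079 in clone 2 of set 1-1 and 14615 in clone 16 of set 1-1, and 22657 in parental cells. The widest gap lay within set 5-3, whose clones stood at 50.5% and 101.1% of the parental signal, and the 1-1 clones, which lay between them, were 1.03-fold apart. Set 5-3 minus set 1-1 was 0.13 with an SE of 0.31 (limma adjusted p = 0.898). Clone 19 of set 5-3 was at the parental level, and the other 3 clones lay at 50.5% to 66.6% of it. Thus clone 14 of set 5-3 combined a Pcsk2 signal at 82.3% of the parental level with the lowest Scg5 signal, at 50.5%.

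Cpe, which trims the basic residues, was the steadiest member. It read 23725 and 23733 in set 5-3, 24475 and 19940 in set 1-1 and 24769 in parental cells, a span of 1.24-fold over the 5 arrays. The sets overlapped, with a log2 difference of 0.10 and an SE of 0.16 (limma adjusted p = 0.819). All 4 clones lay below the parental signal, 3 of them by at most 1.04-fold; this position was shared by Pcsk2, 2 of 5 members, and by 19.7% of tested probe sets.

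Pam, the amidating enzyme, was measured by 3 probe sets of very different brightness. The bright one (1367687_a_at) read 14577 and 11757 in set 5-3, 13900 and 14155 in set 1-1 and 11003 in parental cells. All 4 clones stood above the parental signal, by 1.07- to 1.32-fold, a position that 18.4% of tested probe sets shared, and the sets overlapped (log2 difference −0.10, SE 0.17, limma adjusted p = 0.845). A second probe set (1370502_at) read 173.9 and 71.0 in set 5-3, 300.2 and 208.9 in set 1-1 and 265.6 in parental cells, where the 5-3 clones were lowest. The last (1370689_at) read 42.2 and 16.2 in set 5-3, 12.1 and 20.3 in set 1-1 and 9.9 in parental cells, around the offset of 21.8 that was added before taking logarithms. Neither of these 2 probe sets passed the filter on dim probe sets, which keeps mean levels equivalent to a signal of about 194, and they were not tested. By position, the last placed all 4 clones above the parental signal and the second placed 1 of the 4 above it. The last lies near the offset and is no check on the bright probe set. The second read above about 194 in both 1-1 clones and in parental cells. Both 5-3 clones lay below both 1-1 clones in it, unlike in the bright one. No detection calls were used, so whether it measured signal above background on each array was not tested.

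Over all 4 clones against the parental line, 0 of 5 tested members and 0 of 9520 probe sets (0%) passed limma's threshold, with 3.67% at an unadjusted p under 0.05. The fitted log2 differences, clones minus parental, were −0.999 for Pcsk2 (SE 0.76), −0.51 for Pcsk1n (SE 0.80), −0.55 for Scg5 (SE 0.34), −0.11 for Cpe (SE 0.16) and 0.30 for Pam (SE 0.18). The SE was widest for Pcsk2 and Pcsk1n, in which the sets lay apart. With 1 clone left out at a time, the difference ran from −1.31 (without clone 19 of set 5-3) to −0.60 (without clone 16 of set 1-1) for Pcsk2 and from −0.85 to −0.12 for Pcsk1n, without the same clones. Every member had a limma adjusted p of 0.9996. The median over the 5 members was −0.51 and over all 6944 tested genes 0.02.

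**Figure D3:**
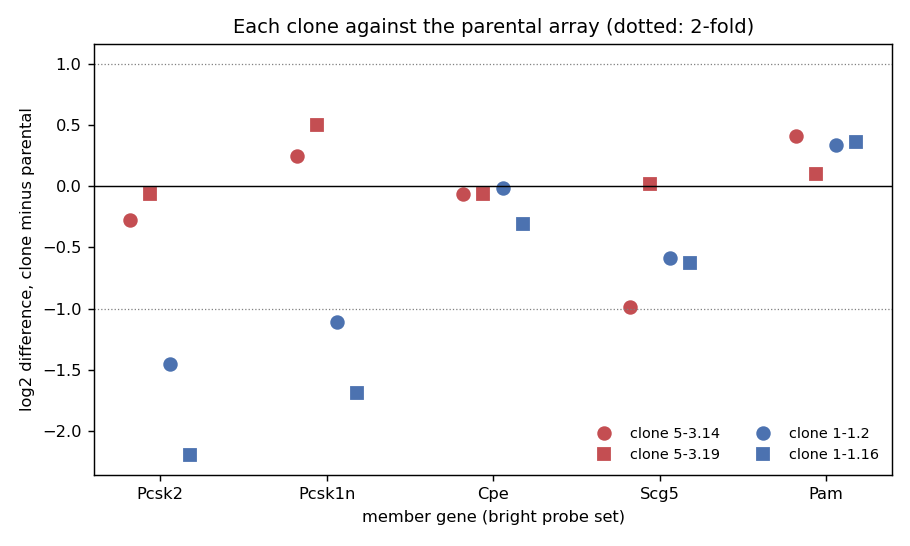
Log2 difference of each clone from the parental array for the 5 members by their bright probe sets, red for set 5-3 and blue for set 1-1; dotted lines mark 2-fold. Only the 1-1 clones of Pcsk2 (−1.45 and −2.20) and Pcsk1n (−1.11 and −1.69) pass the lower line, and Scg5 in clone 14 of set 5-3 (−0.98) reaches it closely.

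The likeness of expression profiles was described by the root mean square distance between log2 profiles over the 5 arrays, each taken relative to its own mean, among 8095 probe sets with a single gene symbol. For Pcsk2 the closest was Ccng2, which encodes cyclin G2, at a distance of 0.10, followed by Rin2, which encodes a Rab exchange factor, at 0.16 and Stmn2, a neuronal stathmin, at 0.20. Ccng2 read 1650 and 1782 in set 5-3, 835 and 447 in set 1-1 and 2126 in parental cells. Pcsk1n was number 7 on the Pcsk2 list, at 0.21. For Pcsk1n the closest were Rxrb, a retinoid X receptor gene (0.17), Nherf1, a membrane scaffold gene (0.18), and the myosin gene Myo1d (0.18), and Pcsk2 was number 5. On the Pcsk2 list Scg5, Cpe and Pam were numbers 1578, 1725 and 5227, at distances of 0.78, 0.79 and 0.98. These distances describe 5 arrays, of which 2 pairs share a clone set, and are not tests; the other members varied less than 2-fold and no list was drawn up for them.

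Other proprotein convertases were measured beside the members. Of 7 listed, 5 were tested and none was called between the sets or against the parental line. Mbtps1, the site-1 protease that acts in the Golgi on SREBP and ATF6, read 2923 and 2640 in set 5-3, 1108 and 1078 in set 1-1 and 1341 in parental cells. Here too the 5-3 clones stood above the 1-1 clones, with a log2 difference of 1.33 that did not pass (limma adjusted p = 0.0675), but the parental signal lay near the 1-1 clones. Furin, the ubiquitous Golgi convertase, spanned 835 to 1054 over the 5 arrays. Pcsk6 read 1811 and 3538 in set 5-3, 2222 and 3897 in set 1-1 and 1943 in parental cells, so that the clones of both sets spread apart, and Pcsk4 stayed at 231 to 296. The median log2 difference of these 5 genes, set 5-3 minus set 1-1, was 0.12, beside 0.13 for the members and −0.05 for all 6944 tested genes.

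Carboxypeptidases related to Cpe, other peptide-modifying enzymes and cathepsins included no called gene. Among carboxypeptidases related to Cpe, 2 of 6 listed were tested. Cpn1 read 2049 and 1628 in set 5-3, 1127 and 1016 in set 1-1 and 2163 in parental cells, with a log2 difference of 0.76 between the sets (limma adjusted p = 0.205), and Cpd, a trans-Golgi carboxypeptidase, ranged from 2363 to 3805. Qpct, which makes N-terminal pyroglutamate, read 674 and 1201 in set 5-3, 1645 and 1887 in set 1-1 and 1002 in parental cells (log2 difference −0.95, limma adjusted p = 0.221). The tyrosylprotein sulfotransferase genes Tpst1 and Tpst2 had log2 differences of −0.59 and 0.06. Of the cathepsins, lysosomal proteases, 3 of 6 were tested, and their log2 differences ran from −0.21 for Ctsd to 0.38 for Ctsb. The bright Ctsl probe set gave −0.07 and its other one 0.36, none past the threshold.

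Pam needs copper and binds the exchange factor kalirin through its cytosolic tail. Kalrn, the kalirin gene, read 1241 and 1116 in set 5-3, 512 and 692 in set 1-1 and 573 in parental cells by its brightest probe set. All 3 of its tested probe sets had a higher mean in set 5-3, with log2 differences of 0.96, 0.40 and 1.32, and the brightest had a limma adjusted p of 0.164. The copper importer gene Slc31a1 lay the other way, with 1219 and 1135 in set 5-3, 2106 and 1841 in set 1-1 and 1520 in parental cells. Its 3 probe sets gave log2 differences of −0.73, −0.68 and −0.63 (limma adjusted p = 0.200 for the brightest). Of 5 tested genes in this list 0 were called, and the median was −0.01.

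Granule convertases work at low pH, which a vacuolar proton pump provides. Of 19 listed pump genes 15 were tested and 0 were called, and the median log2 difference between the sets was −0.02. Set 5-3 stood above set 1-1 without overlap for 4 of them and below for 3, beside 22.1% and 24.5% of all tested probe sets. Atp6v0d1, a subunit of the membrane part, read 6159 and 6061 in set 5-3, 3698 and 2987 in set 1-1 and 4013 in parental cells (log2 difference 0.87, limma adjusted p = 0.134). Atp6v1d, of the cytosolic part, had a log2 difference of −0.67 and Atp6v1b2 one of 0.35. Granins fill the granule and are themselves cut by convertases. None of the 5 granin and Vgf genes was called, with Scg2 at 3843 and 4689 in set 5-3, 2984 and 1728 in set 1-1 and 7893 in parental cells, and Vgf at 7805 and 3735 in set 5-3, 8809 and 8560 in set 1-1 and 2646 in parental cells.

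Most tested precursors of peptide hormones spanned wider ranges than most members. Of 30 listed peptide hormone genes, 27 had a probe set and 9 were tested. Of these 9, 7 spanned at least 2-fold over the 5 arrays, as did 2 of 5 member genes, beside 25.6% of tested probe sets. The bright precursors Ins1 (34381 to 42217) and Iapp (19160 to 33945) did not, with spans of 1.23- and 1.77-fold. One precursor was called between the sets, Gast, which encodes gastrin, an amidated hormone (limma adjusted p = 0.000499). It read 12.9 and 18 in set 5-3, 2540 and 3475 in set 1-1 and 1362 in parental cells. Both 5-3 signals lay below the offset of 21.8 added before taking logarithms, so the offset partly sets the log2 difference of Gast. Gast passed the brightness filter only through set 1-1 and parental cells, so its p-value and its place among the 7 add no support beyond these signals. The bright Pam probe set was within 1.24-fold over the same 4 clones. Gcg, the proglucagon gene and a PC2 substrate in alpha cells, read 20550 and 24434 in set 5-3, 2064 and 17772 in set 1-1 and 6875 in parental cells. Clone 16 of set 1-1 thus had the lowest Pcsk2 signal with a Gcg signal above the parental one, and clone 2 of set 1-1 the lowest Gcg signal. Ins2 read 3953 and 4303 in set 5-3, 30224 and 5381 in set 1-1 and 28816 in parental cells, an order that none of the members shared. Sct, the secretin gene, also amidated as a hormone, read 1176 and 279 in set 5-3, 807 and 753 in set 1-1 and 244 in parental cells.

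**Figure D4:**
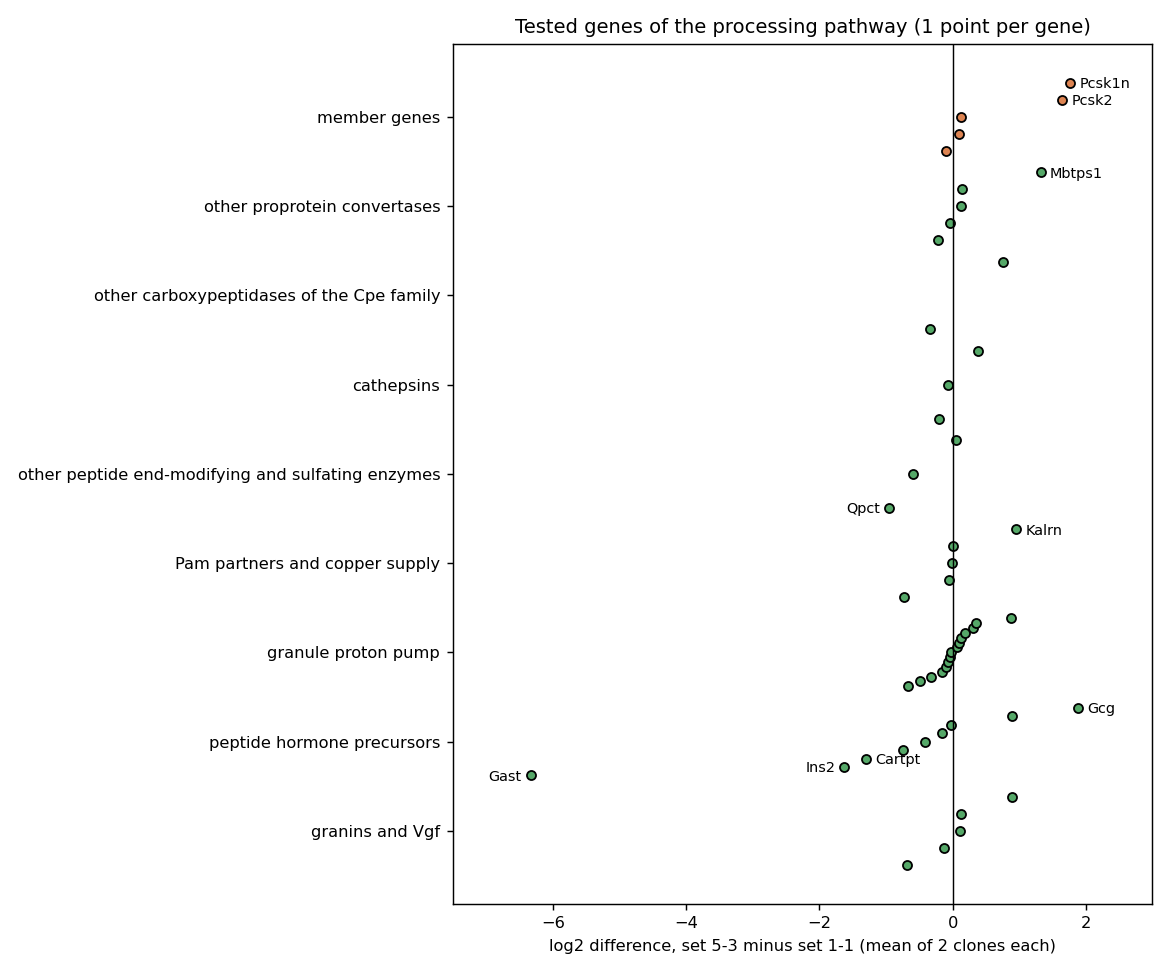
Log2 difference between the clone sets, set 5-3 minus set 1-1, for each tested gene of the members (orange) and of the other processing lists (green), 1 point per gene by its brightest probe set. Most points lie within 1 of 0. Pcsk1n, Pcsk2, Mbtps1 and Gcg lie to the right. Points to the left include Ins2 at −1.62. Gast lies far to the left at −6.33, a value partly set by the offset, since its set 5-3 signals lie below that offset.

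Transcription factors of islet and endocrine genes were measured as well, and none of the 10 tested was called between the sets. Neurod1 read 6392 and 5773 in set 5-3, 6927 and 2790 in set 1-1 and 8773 in parental cells, so the 1-1 clones were not alike. Isl1 read 3029 and 2036 in set 5-3, 1987 and 1148 in set 1-1 and 2544 in parental cells, with a log2 difference of 0.71. The stimulus-induced genes Nr4a1 and Egr1 had log2 differences of −1.35 and −0.73, and the spread within set 5-3 was wide for both. None of the 10 shared with Pcsk2 and Pcsk1n the position of both 1-1 clones at least 2-fold below the other arrays. Only 0.336% of all tested probe sets held that position, so its absence here is near the background share.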

How the data were processed

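RNA of 4 INS-1 clones and of the parental line was measured on 5 single-colour arrays. The deposited table holds linear signal intensities, 1 for each probe set on each array, judging by the values; their software is not given in the sources used here. Without the lowest and highest 2%, the mean was 1000.24 to 1000.28 on every array, so the authors' deposited intensities had been scaled and were used as they stand. Control probe sets (57) were left out. Gene names came from the platform annotation: 12783 probe sets had 1 symbol, 312 several and 2771 none; 12748 were found by gene number in the GRCr8 table.

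Signals were taken as log2(signal + 21.8), the offset being the 10th percentile of positive signals, so folds of dim genes are understated. The 9520 probe sets at or above the 40th percentile of mean log2 level (a signal of about 194) were tested with limma 3.58.1 in R 4.3.3, with an intensity trend and Benjamini-Hochberg adjustment: the 4 clones as 1 group against the parental array (3 residual degrees of freedom), and 3 groups for the sets (2). The tests were tested on simulated data with independent noise on each array. Such data cannot show how the tests behave if clones of a set are related or the parental array was handled differently. Members, lists and tests were chosen with earlier results of these data known. The rule for naming took every member probe set, up to 4 genes per list with the widest range, and the 3 closest profiles of members spanning at least 2-fold. A gene with several probe sets is represented by its brightest. The number of arrays limits the precision. Alternatives covered scaling, offset, filter, variance model, grouping and each clone left out.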

Additional observations from a re-analysis of the deposited data

Results flagged for a closer look

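Pcsk1n lay on opposite sides of the parental line in the sets: both 5-3 clones lay above it and both 1-1 clones below. Both 5-3 clones stood above both 1-1 clones for 22.1% of all tested probe sets. The share of these with the parental signal in between was not counted. The difference between the sets was 1.77 on the log2 scale, tested with limma at an adjusted p of 0.0519. That p-value comes from the same signals as the flag and adds no support to it.

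Cpe had 1 clone far from the others: clone 16 of set 1-1 read 19940, against 23725, 23733 and 24475 in the other clones, a gap of 0.835 of the whole range, past Dixon's limit for 4 samples. Chance alone flags about 1 in 20 groups, and 7 member probe sets were looked at in this way. Among the listed genes named beside them, for which 35 probe sets were looked at, Ins2 alone was set apart in this way: it had clone 2 of set 1-1 apart from the other 3 clones, with a gap of 0.946 of the range.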

How the results depend on the processing

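The log2 differences of the 5 tested member probe sets were recomputed under 13 alternatives for clones minus parental and for the sets, and 12 for each set minus parental. Pcsk2 and Pcsk1n stayed higher in set 5-3 in all 13, over 1.27 to 2.02 and 1.48 to 2.06. Over the alternatives that kept all 4 clones, their limma adjusted p ranged over 0.0646 to 0.133 and 0.0384 to 0.120. Pcsk1n passed the threshold with median centring (0.0384) and a larger offset (0.0466), and Pcsk2 with none of them. Differences near 0 changed sign: set 5-3 minus set 1-1 was 0.055 for Pam and −0.37 for Scg5 without clone 19 of set 5-3 and −0.045 for Cpe without clone 16 of set 1-1, and set 5-3 minus parental was 0.015 for Scg5 without clone 14 of set 5-3. With a clone left out these differences ranged from −0.25 to 0.055, −0.37 to 0.62, −0.045 to 0.25 and −0.98 to 0.015. None of these passed the threshold.

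Between the sets, 40 probe sets were called, against 72 with median centring, 10 with no filter, 12 with a filter at the 60th percentile and 50 to 224 with a clone left out. For set 1-1 minus parental, 1 was called, against 0 with median centring, no filter or no intensity trend and 5 to 53 with a clone left out. For set 5-3 minus parental, 1 was called, against 5 under median centring, quantile normalization or cyclic loess, 4 with a larger offset, 0 with no filter or the filter at the 60th percentile and 14 to 141 with a clone left out. For clones minus parental every alternative called 0, with 349 probe sets at an unadjusted p under 0.05 in the fit reported. The cause of these changes was not tested. No detection calls were used, so whether the 2 dim Pam probe sets measured signal above background was not tested.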

Other observations

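Among the precursors below the brightness filter, and named after the values were seen, Gip, which encodes the incretin glucose-dependent insulinotropic polypeptide, read 17.4 and 63.8 in set 5-3, 3196 and 52.1 in set 1-1 and 85.7 in parental cells. Clone 2 of set 1-1 alone was bright. The neuropeptide precursor gene Tac1 read 197.5 and 425.9 in set 5-3, 9.1 and 32.0 in set 1-1 and 286.6 in parental cells, an order of sets like that of Pcsk2, at signals where no test was made.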
